A study of Mus musculus with 4 samples.

Results

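The Hox genes of the A, B, C and D clusters were read in cells sorted from adult mouse spinal cord. Members were the gene rows whose name was Hox, a letter from a to d and a number, which gave 39 of 32287 gene features. Each gene was placed in its paralogue group, the number in its name, and its UMIs (unique molecular identifiers, counts of single captured transcripts) were summed over the cells of 1 class in 1 library. Levels are counts per 1000000 gene UMIs (CPM). The libraries read the 3' end of transcripts, so values were not divided by gene length, and the order of levels of different genes is an order of captured UMIs.

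Hox genes encode homeodomain transcription factors that give cells along the head-to-tail axis their regional identity. Within a cluster the genes lie in the order in which their anterior borders follow each other along the body, an arrangement called collinearity, with low paralogue numbers at the hindbrain end and high numbers at the tail end. In the cord, Hoxc9 is a factor of thoracic levels, genes of group 10 act at lumbar levels, and groups 11 to 13 act at caudal levels. Hox proteins bind DNA together with TALE homeodomain cofactors of the Pbx and Meis families. Adult cells keep much of this code after patterning has ended.

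All mice were Cx30-tdTomato animals, in which tamoxifen-induced recombination under control of Cx30, the astrocyte connexin encoded by Gjb6, switched on a permanent red reporter. All had received an intravenous library of enhancer AAVs (adeno-associated viruses), and tdTomato+ cells were sorted from 5 mm of cord. The injured library came from tissue around a mid-thoracic contusion 3 days after injury and the uninjured library from the same cord level of mice with no injury. Each condition pooled 1 to 2 animals per sex and gave 1 gene expression library.

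With 1 library per condition no test of the condition was possible. Intervals are 95% intervals of counting error alone, and injury, the pooled animals and the exact segment dissected cannot be told apart. The injured library kept 879 cells of 919 barcodes with a median of 6816 gene UMIs, and the uninjured library 4159 cells with a median of 3343. The libraries shared 7 barcodes. Scored by X- and Y-linked transcripts, the injured library held 250 female and 315 male cells. The uninjured library held 2 female and 2770 male cells, although the series describes both sexes in each condition. The Hox total, the share of lumbar and caudal groups and the member ratios of astrocyte-like cells were therefore also read in male-scored cells. Ratios between libraries of single members in other classes, and of genes other than Hox members, were not read in male-scored cells. Cells fell into 14 clusters. Markers named 12 of them as 7 classes, and 2 clusters rich in neuronal transcripts (30 injured and 1060 uninjured cells) stayed unnamed. All 9 astrocyte markers, Gjb6 included, had UMIs in the 405 injured and 2899 uninjured astrocyte-like cells. Other named cells were 144 and 31 ependymal-like, 46 and 14 OPC-like (oligodendrocyte precursors), 43 and 95 fibroblast-like, 70 and 26 endothelial-like, 13 and 3 mural-like and 128 and 31 microglia-like cells in the injured and uninjured library.

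The homeobox coding sequences of 4 members of groups 9 and 10 are shown, as found in GENCODE M21 transcripts of the GRCm38 assembly. Each encodes the DNA-binding homeodomain, 60 codons on the strand of the gene, and capitals mark the codons at the core of the third helix, which lies in the major groove of DNA.
Hoxb9: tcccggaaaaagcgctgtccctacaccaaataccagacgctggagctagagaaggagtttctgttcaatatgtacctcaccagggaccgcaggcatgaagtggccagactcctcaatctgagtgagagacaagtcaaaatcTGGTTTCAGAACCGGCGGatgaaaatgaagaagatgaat
Hoxc9: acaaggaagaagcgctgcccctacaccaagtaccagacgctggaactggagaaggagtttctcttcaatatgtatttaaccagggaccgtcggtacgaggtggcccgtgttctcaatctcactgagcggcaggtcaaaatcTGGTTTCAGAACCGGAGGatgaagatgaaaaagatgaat
Hoxa10: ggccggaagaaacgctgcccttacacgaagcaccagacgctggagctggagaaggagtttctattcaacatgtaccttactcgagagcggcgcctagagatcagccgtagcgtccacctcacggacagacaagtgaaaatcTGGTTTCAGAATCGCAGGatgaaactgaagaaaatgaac
Hoxc10: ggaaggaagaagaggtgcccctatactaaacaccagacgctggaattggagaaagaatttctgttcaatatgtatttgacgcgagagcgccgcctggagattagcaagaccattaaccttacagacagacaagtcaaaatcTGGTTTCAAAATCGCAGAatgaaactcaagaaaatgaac
Members of 1 paralogue group were on the median closer to each other than to other members, but not in every pair: Hoxa6 shared 88.9% of these bases with Hoxa7 and 85.6% with Hoxb6. Hoxb9 and Hoxc9 shared 83.9%, Hoxa10 and Hoxc10 80.6%, and Hoxc9 and Hoxc10, neighbours in the C cluster, 71.7%. Over the 38 members with 1 homeobox found, the median identity was 80.6% in 39 pairs of the same group and 60.6% in 664 pairs of different groups. The A cluster (11 members) lies on the minus strand of chromosome 6, and the others lie on the plus strand at chr11:96194316-96368256 (B, 10 members), chr15:102921103-103036852 (C, 9 members) and chr2:74668310-74765142 (D, 9 members). In the annotation 11 members overlap another member on the same strand, and their counts are uncertain to that extent. These are Hoxc5 with Hoxc6, Hoxc8, Hoxc9 and Hoxc10, Hoxa3 with Hoxa4, Hoxa5 and Hoxa6, and Hoxd3 with Hoxd4. Among the members named below, by the GRCm38 annotation, Hoxa9 (ENSMUSG00000038227) spans chr6:52223100-52231089 and Hoxa10 (ENSMUSG00000000938) chr6:52231197-52240854. In the C cluster, Hoxc11 lies at chr15:102954427-102957708, Hoxc10 at chr15:102966796-102971893, Hoxc9 at chr15:102976439-102985099 and Hoxc8 at chr15:102990607-102994111. In the B cluster, Hoxb9 lies at chr11:96271457-96276595 and Hoxb7 at chr11:96286623-96290162. All are protein-coding genes.

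The adult cord cells held a wide Hox code that stopped at group 11. UMIs were found for 33 of the 39 members, for all 30 members of groups 1 to 10 and for all 3 of group 11. The 6 members of groups 12 and 13, which pattern the tail end of the body, had 0 UMIs in every barcode of both libraries. In astrocyte-like cells 27 members reached 10 UMIs in a library. The remaining 12 were the 6 at 0 and 6 with 0 to 9 UMIs, among them Hoxb1, Hoxd1, Hoxd10, Hoxa11 and Hoxd11.

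Astrocyte-like cells took most of their Hox UMIs from the middle of the clusters. Hoxc8, a thoracic patterning factor, led with 108 CPM (injured) and 87.1 CPM (uninjured). Hoxa7, which acts in trunk patterning, followed with 87.6 and 80.8 CPM. Next, in an order that differed between the libraries, stood Hoxa9 with 54.8 and 71.0 CPM, Hoxc9 with 54.8 and 44.3 CPM, Hoxc6 with 46.1 and 46.7 CPM and Hoxa3, a hindbrain and neck factor, with 32.4 and 62.7 CPM. In the injured library the intervals of Hoxc8 (94.8 to 123 CPM) and Hoxa7 (75.7 to 101 CPM) overlapped, as they did for Hoxa9, Hoxc9 and Hoxc6. Group 8 was the largest with 24.4% of the 1428 Hox UMIs of injured cells and 18.8% of the 7549 of uninjured cells, ahead of group 9 with 18% and 16.9%. Of the homeobox genes listed for head and brain, Otx1, Otx2, Six3, Emx2 and Lhx2 were at 0 in astrocyte-like cells of both libraries. Emx1, En1 and En2 had 1 UMI each, and Gbx2 had 8 UMIs in injured cells and 0 in uninjured cells.

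Members of 1 paralogue group stood at unlike levels in the same astrocyte-like cells, given here for the injured and then the uninjured library. In group 7, Hoxa7 was at 87.6 and 80.8 CPM and Hoxb7 at 11.0 and 6.85 CPM. In group 9, Hoxa9 and Hoxc9 were above 40 CPM in both libraries while Hoxb9 was at 4.56 and 1.54 CPM and Hoxd9 at 3.19 and 6.47 CPM. In group 8, Hoxb8 (22.8 and 29.2 CPM) and Hoxd8 (28.3 and 20.9 CPM) were below Hoxc8. The spread was smaller in groups 4 and 5 apart from Hoxa4, which had 1.37 and 2.80 CPM: Hoxb4, Hoxc4 and Hoxd4 ran from 12.3 to 38.0 CPM and Hoxa5, Hoxb5 and Hoxc5, which act at neck and upper trunk levels, from 12.9 to 26.9 CPM. Group 6 ran from Hoxa6 (2.28 and 3.48 CPM) to Hoxc6 (46.1 and 46.7 CPM), and group 2 held Hoxa2 (5.48 and 4.83 CPM) and Hoxb2 (12.3 CPM in both). Hoxa4, Hoxa5 and Hoxa6 lie within the same-strand span of Hoxa3, and the effect of this overlap on their levels was not tested.

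**Figure D1:**
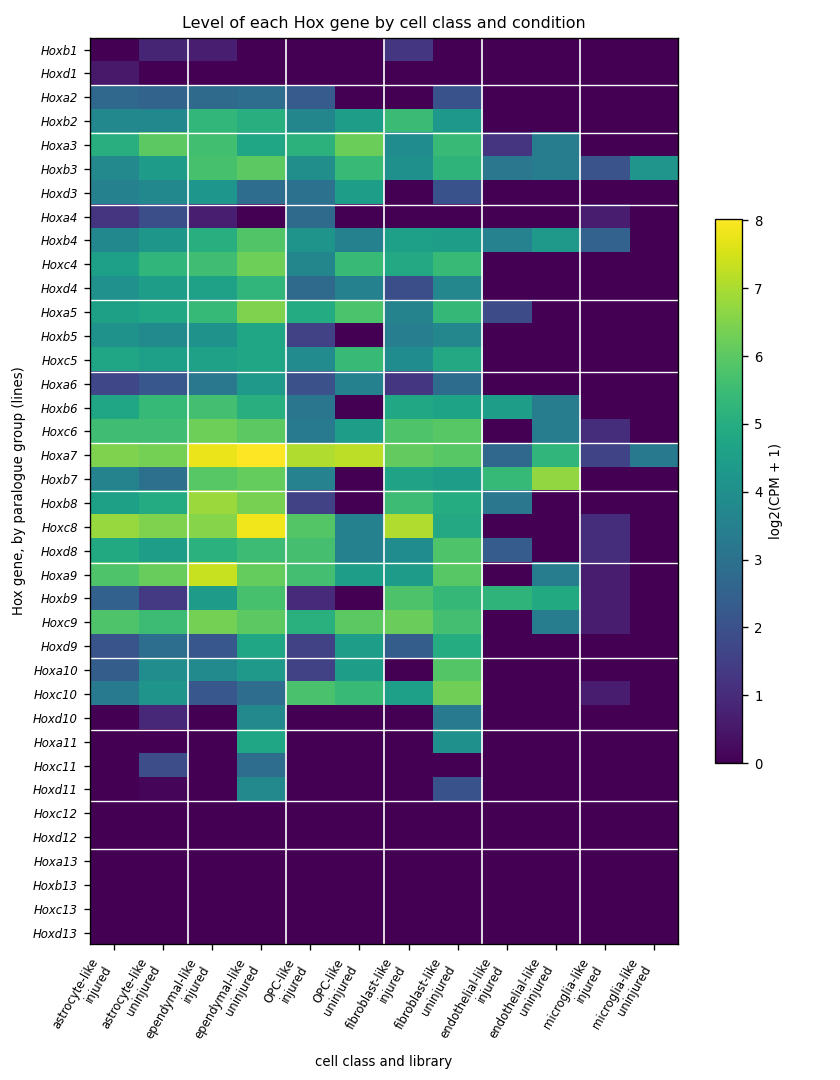
Level of 38 Hox genes as log2(CPM + 1), in colour, with genes in rows by paralogue group and 6 cell classes of both libraries in columns. Groups 12 and 13 are at 0 throughout, microglia-like columns are nearly empty, and the endothelial-like columns hold chiefly Hoxb genes.

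Total Hox level was slightly lower in injured astrocyte-like cells. Injured cells stood at 652 CPM (618 to 686) and uninjured cells at 729 CPM (712 to 745), a ratio of 0.894 (0.844 to 0.946). Of injured astrocyte-like cells 76.3% held a Hox UMI, and of uninjured ones 83.3%. With every cell thinned to 1000 UMIs, which left out 33 injured and 67 uninjured cells, the shares were 44.1% (39.0 to 49.3) and 50.3% (48.4 to 52.1). Microglia-like cells, which should lack the cord's Hox code, gave 14.8% and 9.68% unthinned at median depths of 13724 and 3169 UMIs, and 2.48% and 0% (0 of 28 cells) thinned. A scaling by the median ratio of genes abundant in every class moved the astrocyte-like log2 ratio of the total from -0.16 to -0.41. This scaling multiplies the ratio of every member by 1 factor.

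The difference was not shared evenly along the axis. Groups 3, 4, 6 and 10 had lower levels in the injured library, at 55.7 against 95.4 CPM, 51.1 against 79.6 CPM, 73.9 against 90.4 CPM and 12.8 against 31.8 CPM. Group 2 had 17.8 and 17.1 CPM and group 5 had 63.4 and 62.0 CPM. As shares of the Hox UMIs, groups 1 to 4 gave 19.4% of injured and 26.6% of uninjured Hox UMIs, with an odds ratio of 0.665 (0.576 to 0.767). Group 7 was higher as a share, 15.1% against 12%, with an odds ratio of 1.30 (1.11 to 1.53), and group 8 had an odds ratio of 1.40 (1.22 to 1.60). Group 9 did not separate at this depth, with an odds ratio of 1.08 (0.925 to 1.25). Groups 10 to 13 gave 28 of 1428 UMIs (1.96%) in injured and 358 of 7549 (4.74%) in uninjured cells, with an odds ratio of 0.402 (0.262 to 0.594). The mean paralogue number of a Hox UMI was 6.62 (6.52 to 6.73) in injured and 6.4 (6.35 to 6.45) in uninjured cells, so the mean was higher in injured cells although the share of groups 10 to 13 was lower. These libraries filled the class from different clusters: 330 of 405 injured astrocyte-like cells lay in the cluster led by Gfap and Timp1, and 2884 of 2899 uninjured ones in 4 others. Cells of the Gfap cluster gave 2.09% (1.39 to 3.01) from groups 10 to 13 when injured (28 of 1338 UMIs). When uninjured they gave 4.48% (0.933 to 12.5; 3 of 67 UMIs, 15 cells). These intervals overlap, so the libraries did not separate within this cluster.

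**Figure D2:**
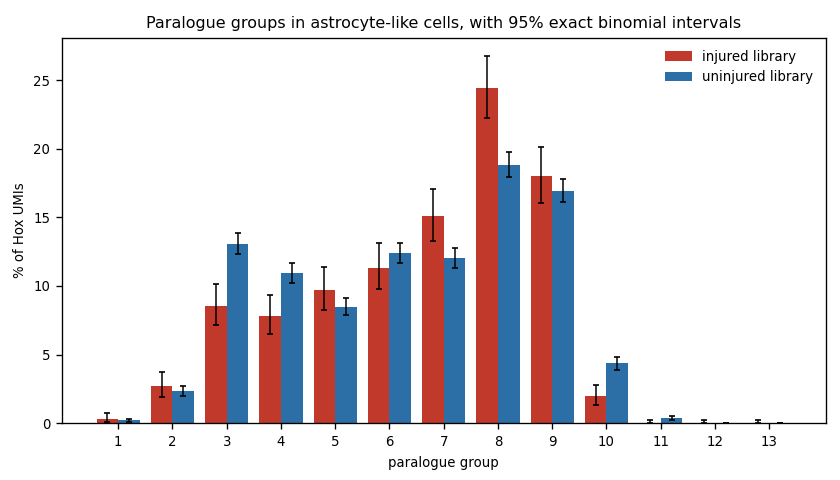
Share of the Hox UMIs of astrocyte-like cells from each paralogue group, as bars with exact binomial 95% intervals, injured library in red and uninjured library in blue. Groups 3, 4 and 10 are lower in the injured library, groups 7 and 8 are higher, and groups 12 and 13 are at 0 in both.

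Single members of the astrocyte-like code separated the libraries at shares below or near those of all genes. Of 28 members with 10 UMIs over both libraries, the interval of the injured over uninjured ratio included 1 for 16. It lay above 1 for 4 (14.3%), against a background of 27.1% of 14561 genes. Below 1 it lay for 8 (28.6%), near the background of 23.3%. With the median-ratio scaling the intervals of Hoxc8, Hoxc9 and Hoxd8 included 1 and that of Hoxb9 stayed above 1 (2.49, 1.01 to 5.83). A further 5 members (Hoxb4, Hoxd4, Hoxa5, Hoxb8 and Hoxd9) then had intervals below 1. The share of all genes called with this scaling was not counted, so these calls have no background. At least 2-fold higher (log2 of CPM + 1) stood 1 of 28 members, against 13.2% of genes, and at least 2-fold lower 2 of 28, against 9.1%. The median log2 ratio was -0.30 over the members and -0.01 over all genes. Anterior members among the 8 were Hoxa3 (71 and 649 UMIs, ratio 0.517, 0.399 to 0.661), Hoxb3 (0.630, 0.409 to 0.938) and Hoxc4 (0.576, 0.418 to 0.778), which pattern the hindbrain and neck, and Hoxb6 (0.636, 0.473 to 0.843) of the upper trunk. Hoxa9 stood at 0.771 (0.630 to 0.936), but at log2 0.040 when cells were thinned to 1000 UMIs.

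Lumbar and caudal members made up the rest of the lower group. Hoxa10 had 9 UMIs in 9 of 405 injured cells and 147 UMIs in 136 of 2899 uninjured cells, 4.11 against 14.2 CPM and a ratio of 0.289 (0.130 to 0.565). Hoxc10 had 19 and 173 UMIs, 8.67 against 16.7 CPM and a ratio of 0.519 (0.305 to 0.836). Hoxc11 had 0 UMIs in injured and 28 in uninjured cells and was at least 1.97-fold lower with 3 UMIs as the floor of the injured cells.

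Higher in injured cells were Hoxc8 (1.24, 1.07 to 1.43), Hoxc9 (1.24, 1.00 to 1.51), Hoxd8 (1.36, 1.01 to 1.81) and Hoxb9 (2.95, 1.2 to 6.92). The lower bounds of Hoxc9 and Hoxd8 were close to 1, and with cells chosen by an Aldh1l1 UMI in place of clusters the log2 ratio of Hoxc8 was -0.029. Hoxb9 rested on 10 injured UMIs from 4 cells, 7 of them in 1 cell, and without the 1% of cells with the most Hox UMIs its log2 ratio was -0.11.

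**Figure D3:**
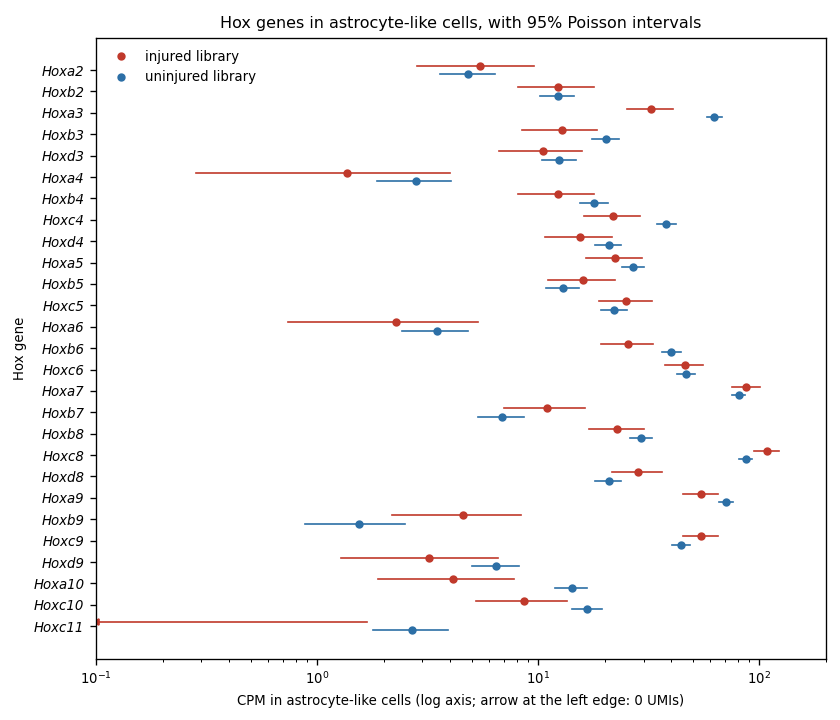
CPM of the 27 Hox genes with at least 10 UMIs in astrocyte-like cells of a library, on a log axis with Poisson 95% intervals, injured library in red and uninjured library in blue. Among genes with intervals apart, Hoxa3, Hoxc4, Hoxb6, Hoxa10 and Hoxc10 lie lower in the injured library and Hoxc8 lies higher. Hoxc11 has no UMI in the injured library.

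Caudal UMIs were scarcer in the injured library in astrocyte-like, ependymal-like and fibroblast-like cells. Group 11 had 0 UMIs in all 879 injured cells, a count that still allows 0.341% of cells to hold one. The uninjured library held 56 UMIs of group 11 in 51 cells: 29 UMIs in 27 astrocyte-like cells, 14 in 13 unnamed cells, 7 in 5 of 31 ependymal-like cells and 6 in 6 of 95 fibroblast-like cells. In astrocyte-like cells 28 of these 29 were Hoxc11, and in fibroblast-like cells 5 of 6 were Hoxa11, which the astrocyte-like cells of both libraries listed at 0. Groups 10 to 13 made up 1.30% of ependymal-like Hox UMIs in the injured and 5.37% in the uninjured library (28 of 2156 and 13 of 242), with an odds ratio of 0.232 (0.114 to 0.495). In fibroblast-like cells they made up 3.17% and 18.2% (16 of 504 and 53 of 291), with an odds ratio of 0.148 (0.077 to 0.269). OPC-like cells gave 9.47% and 9.23% (55 of 581 and 6 of 65), with an odds ratio of 1.03 (0.418 to 3.05), too wide to call them alike.

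The lower caudal share was also seen in cells of 1 sex. Male-scored astrocyte-like cells gave 2.35% from groups 10 to 13 in the injured and 4.62% in the uninjured library, with an odds ratio of 0.498 (0.273 to 0.843). Within the injured library female-scored cells gave 1.53% and male-scored cells 2.35%, with an odds ratio of 0.646 (0.221 to 1.70). Mean paralogue numbers there were 6.53 and 6.55. Of 20 members with 10 UMIs, 2 had intervals of the female over male ratio above 1, 0 below 1, and 18 included 1. The 2 were Hoxa9 (1.56, 1.03 to 2.37) and Hoxc8 (1.44, 1.05 to 1.98), with lower bounds close to 1. The share of all genes with such intervals was not counted, so these calls have no background. All 8 Hoxa10 UMIs of sexed cells were in male-scored ones, below the 10 UMIs needed to pass. At least 2-fold apart stood 0 of 20 members in either direction, against 3.47% of genes higher and 5.29% lower in female-scored cells. For Hoxc8 the interval of the female over male ratio, between cells of different animals, overlapped that of its ratio of 1.24 between libraries.

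**Figure D4:**
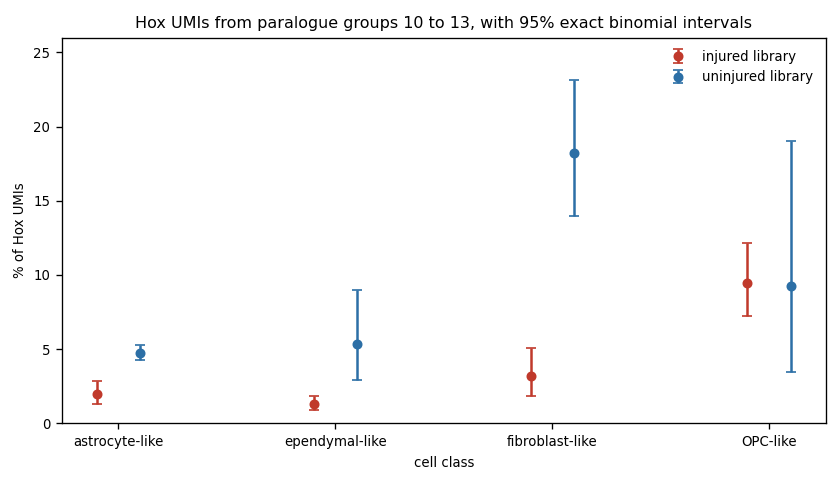
Share of Hox UMIs from paralogue groups 10 to 13 in 4 cell classes, points with exact binomial 95% intervals, injured library in red and uninjured library in blue. The injured points lie below the uninjured ones in astrocyte-like, ependymal-like and fibroblast-like cells, and the OPC-like intervals overlap.

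Ependymal-like cells, the ciliated lining of the central canal, carried the highest Hox level of the classes with over 20 cells. Their total was 1272 CPM after injury and 1527 CPM without it, 1.95 (1.82 to 2.09) and 2.10 (1.84 to 2.38) times the astrocyte-like level of the same library. Of injured ependymal-like cells 97.2% held a Hox UMI, and 69.9% did after thinning. Hoxa7 reached 220 and 259 CPM and was the leading member in both. In the injured library 16 of 25 members with 10 UMIs over both classes had intervals above the astrocyte-like level and 0 below it, against a background of 29.3% and 26.9% of genes, and 11 of the 25 were at least 2-fold higher, against 19.7%. Hoxb genes led: Hoxb7 stood at 5.5 (3.5 to 8.97), Hoxb8 at 4.84 (3.52 to 6.75), Hoxb9 at 4.53 (2.19 to 10.2) and Hoxb3 at 3.93 (2.53 to 6.25) times the astrocyte-like level. The B cluster gave 29.7% of ependymal-like and 18% of astrocyte-like Hox UMIs there, and the C cluster 25.1% and 40.6%. Between libraries, Hoxa9 was higher in injured ependymal-like cells (161 against 69.4 CPM, ratio 2.32, 1.28 to 4.70), and Hoxc8 (92.6 against 227 CPM, ratio 0.408, 0.282 to 0.603) and Hoxa5 (0.454, 0.253 to 0.875) were lower. The uninjured values rest on 31 cells.

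Endothelial-like cells drew most of their Hox UMIs from the B cluster, on few UMIs in the uninjured library. The B cluster gave 93 of 103 Hox UMIs (90.3%) in the injured and 18 of 26 (69.2%) in the uninjured library. The odds of a B cluster UMI over the astrocyte-like class were 42.2 (21.6 to 92.3) and 9.29 (3.84 to 24.8). In the 70 injured endothelial-like cells Hoxb7 had 30 UMIs in 37.1% of cells, Hoxb9 had 27 UMIs in 25.7% of cells and Hoxb6 had 16 UMIs in 18.6% of cells. Hoxb7 stood 3.66 (2.07 to 6.54) and Hoxb9 7.90 (3.71 to 18.3) times above astrocyte-like cells. Total Hox level was nevertheless low, at 137.5 and 245 CPM. Markers of other cells also differed between these libraries: of 9 astrocyte markers 5 had UMIs in injured endothelial-like cells (98.8 CPM in sum) and all 9 in uninjured ones (632 CPM), and of 7 mural markers 4 (34.7 CPM) and 5 (896 CPM), and their part in the result was not tested. The C cluster had 0 UMIs in injured endothelial-like cells, with Hoxc8 at least 27.0-fold and Hoxc9 at least 13.7-fold below the astrocyte-like level. Hoxa9 was also at 0 there, at least 13.7-fold lower. In the injured library 17 of 22 members were at least 2-fold lower than in astrocyte-like cells, against a background of 29.5%. All 22 reached 10 UMIs in the astrocyte-like cells and 3 members did in the endothelial-like cells. The filter thus passed most of them through the class where they are high, so this count is no test of the difference. Among the 26 uninjured endothelial-like cells 30.8% held a Hoxb7 UMI and 11.5% a Hoxb9 UMI.

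**Figure D5:**
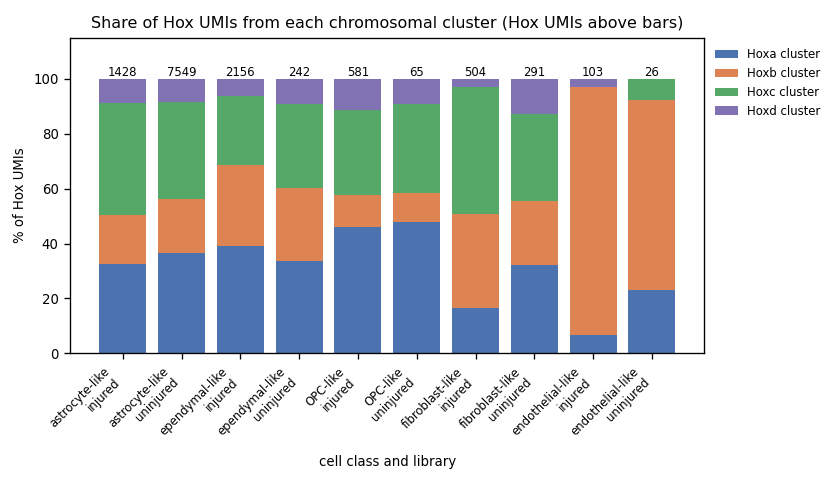
Share of Hox UMIs from the A, B, C and D clusters in 5 cell classes of both libraries, as stacked bars, with the Hox UMIs behind each bar printed above it. The B cluster fills most of both endothelial-like bars and a minor share of the astrocyte-like ones.

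OPC-like cells kept a glial total with another mix of members. The total of 570 CPM after injury and 685 CPM without it was 0.875 (0.793 to 0.964) and 0.941 times the astrocyte-like level. In the injured library Hoxc10, a lumbar motor column factor, had 53 UMIs in 24 of 46 cells, 52.0 CPM and 6.0 (3.49 to 10.7) times the astrocyte-like level. Hoxd8 (1.73, 1.17 to 2.56) and Hoxa7 (1.51, 1.2 to 1.89) were higher too. Hoxb8 (2 UMIs, ratio 0.0860, 0.0101 to 0.327), Hoxb5 (2 UMIs, 0.123, 0.0143 to 0.478) and Hoxc6 (0.192, 0.0852 to 0.378) were lower. Only 1 of 23 members was at least 2-fold higher, against a background of 22.6%, and 6 were at least 2-fold lower, against 15.8%. Hoxc10 was found in 4 UMIs of the 14 uninjured OPC-like cells, 42.2 CPM. Female- and male-scored injured OPC-like cells gave 7.37% and 11.6% of Hox UMIs from groups 10 to 13.

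Fibroblast-like cells had the largest share of caudal UMIs among the named classes of the uninjured library. Hoxa10 had 57.8 CPM, Hoxc10 76.1 CPM and Hoxb9 39.6 CPM, which were 4.08 (2.39 to 6.60), 4.56 (2.87 to 6.96) and 25.6 (11.3 to 56.8) times the astrocyte-like level of that library. Both uninjured fibroblast-like clusters shared this, with 18.7% and 17.7% of Hox UMIs from groups 10 to 13. Injured fibroblast-like cells all lay in the first of these clusters. They held 0 UMIs of Hoxa10 against 19, at least 13.9-fold lower, and Hoxc10 at a ratio of 0.291 (0.145 to 0.568). Hoxc8 went the other way, with 95 UMIs in 43 injured cells and 9 in 95 uninjured cells, 132 against 27.4 CPM and a ratio of 4.81 (2.43 to 10.8). At least 2-fold lower in injured fibroblast-like cells stood 8 of 21 members, against a background of 13% of genes. Hoxb9 was 11.8 (5.81 to 26.6) times the astrocyte-like level in the injured library, and Hoxb2, a hindbrain factor, 3.49 (2.01 to 6.07) times.

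Microglia-like cells were nearly empty of Hox UMIs. The class also held markers of infiltrating myeloid cells, 6 of 6 with 9457 CPM in sum in injured and 3 of 6 with 2882 CPM in uninjured cells, beside 16817 and 13069 CPM of microglia markers, so resident and infiltrating cells cannot be told apart in it. They held 30 UMIs in 128 injured cells (15.9 CPM) and 3 in 31 uninjured cells (25.7 CPM), 0.0243 and 0.0352 times the astrocyte-like level. All 22 members with 10 UMIs over both classes were at least 2-fold lower in injured microglia-like cells, against a background of 33.5%. All 22 reached 10 UMIs in the astrocyte-like cells and 0 did in the microglia-like cells. The filter thus passed them through the class where they are high, so this count is no test of the difference. The 30 UMIs came from 19 cells, up to 5 in 1 cell. Hoxb4 had 9 and Hoxb3 6 of them, and the B cluster gave 53.3%, against 18% in astrocyte-like, 29.7% in ependymal-like and 90.3% in endothelial-like cells of that library. Mural-like cells held 68 Hox UMIs in 13 injured cells (801 CPM) and 4 UMIs in 3 uninjured cells, too few to order members. The unnamed clusters, which carried all 9 astrocyte markers, held 892 and 788 CPM.

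Among uninjured astrocyte-like cells the Hox total varied with the cluster. It was 839 CPM in the Hsd11b1 and Cldn10 cluster, 735 CPM in the Gabbr2 and Shisa9 cluster, 701 CPM in the Vav3 and Shisa6 cluster and 578 CPM in the cluster led by mitochondrial genes, whose median depth was 1879 UMIs. Mean paralogue numbers were 6.65, 6.27, 6.49 and 6.05 in that order. Groups 10 to 13 gave 4.70%, 5.18%, 4.59% and 3.85% of Hox UMIs, all above the 1.96% of injured astrocyte-like cells.

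Genes that work with or around the Hox clusters were read in astrocyte-like cells from lists. Median-ratio scaling, which lowered the ratio of every member, was not applied to the list genes here and in the next paragraph. List intervals with a lower bound near 1 are uncertain to that extent. Of 9 TALE cofactor genes, 2 had ratios with intervals above 1 and 5 below 1, against 27.1% and 23.3% of all genes, with a median log2 ratio of -0.62 against -0.01. The cofactor genes Meis1 (140 and 215 CPM, 0.649, 0.574 to 0.732) and Meis2 (158 and 256 CPM, 0.618, 0.551 to 0.691) were lower, while Meis3 (1.91, 1.15 to 3.08) and Pbx4 (13 UMIs in each library, 4.73, 2.02 to 11.1) were higher. Of 10 non-coding RNAs of the Hox clusters, 8 had 10 UMIs, and of these 0 had an interval above 1 and 2 below 1, on the same background of 27.1% and 23.3%. Hoxb3os, antisense in the B cluster, was 1 of the 2 (35.6 and 81.6 CPM, 0.436, 0.341 to 0.551), and Hoxaas3, antisense in the A cluster, the other (10.5 and 19.0 CPM, 0.552, 0.342 to 0.852). Hotair, of the C cluster, had 0 UMIs in injured and 12 in uninjured cells, and Haglr, of the D cluster, 0 and 18. The sources used here do not say whether strand was used in counting, so reads of Hoxb3os cannot be told apart from those of Hoxb2 and Hoxb3, which it overlaps, those of Hoxaas3 from Hoxa3 to Hoxa7, and those of Haglr from Hoxd3.

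The lists below have the same background of interval calls. Of 11 regulators that set Hox borders in the embryo, 5 had 10 UMIs. Cdx1, Cdx2 and Cdx4, the caudal factors, were at 0 in astrocyte-like cells of both libraries, as were Cyp26a1 and Cyp26b1, which break down retinoic acid. Cyp26b1 had 5 UMIs in injured OPC-like cells. Lower in injured cells were 2 of them, the retinoic acid receptor gene Rarb (35.6 and 87.2 CPM, 0.408, 0.320 to 0.515) and Nr6a1 (49.3 and 86.8 CPM, 0.568, 0.461 to 0.694), a trunk patterning factor. Of 12 Polycomb and Trithorax genes, whose products hold Hox clusters closed or open, 11 had 10 UMIs. Ezh2 was higher (1.37, 1.02 to 1.81), and Ezh1 (0.489, 0.333 to 0.697), Suz12 (0.532, 0.433 to 0.649), Kmt2a (0.630, 0.542 to 0.728) and Kdm6a (0.806, 0.657 to 0.982) were lower. Of 6 factors that mark dorsal and ventral astrocyte domains, Reln alone had an interval off 1 (1.51, 1.25 to 1.82), and Pax6 stood at 34.7 and 34.0 CPM.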

How the data were processed

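Single cell gene expression was read in 1 injured and 1 uninjured library. The authors deposited raw UMI counts per gene and cell from Chromium 3' v3.1 libraries. Per the labels they were made with Cell Ranger 8.0.1 on mm10, while the file headers name Cell Ranger 7.1.0. Whether introns were counted and how strand was used is not given in the sources used here. The 2 enriched barcode libraries and the 23 barcode features were not used here, nor was any column of another sample.

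Members, lists and alternatives were chosen with earlier results of these data known. Cells with over 500 and under 50000 gene UMIs were kept. No doublets were removed, since Scrublet called 2 injured and 0 uninjured cells. After scaling each cell to 10000 UMIs, cells were clustered in scanpy 1.11.5 on 2000 variable genes without the members (15 principal components, 15 neighbours, Leiden resolution 0.5). A cluster was named from lists of 13 cell types where at least 3 markers were found in 10% of its cells. It stayed unnamed where its 10 leading genes, among genes in 25% of its cells, held more markers of another type, a limit set after the clusters were seen. Clusters stood in for the study's own cell labels, which were not used here.

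Counts were summed per class and library. A gene passed with 10 UMIs over the cells compared. Levels have exact Poisson, shares exact Clopper-Pearson and ratios exact conditional binomial intervals, and the log2 ratio used a pseudocount of 1 CPM. All intervals cover counting error alone: UMIs of 1 cell and cells of 1 animal are not independent. A count of 0 was taken to allow 3 UMIs or cells. All members entered the counts, and those with 10 UMIs in a class were open to naming. A list gene was named where it reached 20 CPM in astrocyte-like cells, had an interval off 1, or was at 0 in a library, the last chosen after the values were seen. Some members, list genes and sequences are not reported here. For 32158 of 32285 Ensembl identifiers, positions came from GENCODE M21 (GRCm38, the sequence of mm10). The interval and ratio steps were tested on simulated data.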

Additional observations from a re-analysis of the deposited data

Results flagged for a closer look

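In 3 members the injured over uninjured ratio lay on opposite sides of 1 in different cell classes, each with an interval that left out 1. The share of all genes that meet this rule was not counted, so whether 3 members are many is not known. Hoxc8 stood at 1.24 in astrocyte-like cells and 4.81 in fibroblast-like cells, but at 0.408 in ependymal-like cells. Hoxd8 stood at 1.36 in astrocyte-like and 0.253 in fibroblast-like cells. Hoxa9 stood at 2.32 in ependymal-like cells, against 0.771 in astrocyte-like and 0.342 in fibroblast-like cells. With median-ratio scaling the astrocyte-like intervals of Hoxc8 and Hoxd8 included 1. The differences between classes were not tested, since each class had 1 library per condition.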

How the results depend on the processing

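No paired analysis was possible because no condition had a second gene expression library. Values below are those that left the interval of the reported value or turned its direction, and the cause was not tested unless stated. The share of groups 10 to 13 in astrocyte-like cells ran from 0 to 2.35% in the injured and from 4.62 to 5.09% in the uninjured library over all alternatives, and 4 alternatives were added after the data were seen.

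The astrocyte-like log2 ratio of the Hox total was -0.41 with median-ratio scaling, -0.062 thinned to 1000 UMIs and -0.059 in cells with an Aldh1l1 UMI. Thinning gave an injured mean paralogue number of 6.88 and 22.2% from groups 9 to 13. The uninjured mean was 6.5 with Aldh1l1 cells, 6.46 with the unnamed clusters counted as astrocyte-like and 6.47 with the microglia-like level subtracted.

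With leading genes taken among genes at 50 CPM or more, the Gfap cluster lost its name and 75 injured astrocyte-like cells were left. They gave a total log2 ratio of -0.57, a mean of 6.34, 23.3% from groups 9 to 13, 0% from groups 10 to 13 (0 of their Hox UMIs) and 56.0% of cells with a Hox UMI. Over them the injured total was 2.59 times in ependymal-like, 1.16 times in OPC-like (turned from 0.875), 1.42 times in fibroblast-like and 0.280 times in endothelial-like cells. Log2 ratios then turned for Hoxc4 (0.37), Hoxc8 (-1.38), Hoxd8 (-0.33) and Hoxc9 (-0.026).

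Hoxb9 turned to -0.39 with no cell filter, -0.17 at Leiden resolution 1.0, -0.42 without the highest Scrublet scores and -0.11 without the 1% of cells with the most Hox UMIs, and its reported value rests on 10 UMIs from 4 cells. Hoxa9 was at 0.040 when thinned, Hoxc8 at -0.029 with Aldh1l1 cells, and Hoxb3 at 1.35 with the microglia-like level subtracted, which rests on 2 uninjured UMIs.

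The fibroblast-like total over astrocyte-like in injured cells was 0.811 with no cell filter, 1.32 in male-scored cells, 0.941 thinned, 1.29 as a mean of cells and 0.903 with median-ratio scaling. In uninjured cells it turned to 0.967 without the highest Scrublet scores and 0.954 with median-ratio scaling, and was 1.48 thinned and 1.58 without the cluster found in that library alone. The ependymal-like total was 1.79 and 2.55 times in injured and uninjured cells when thinned and 1.69 and 1.62 times with median-ratio scaling, 1.80 times in injured cells with Aldh1l1 cells, and 1.61 times in uninjured cells without the 1% of cells with the most Hox UMIs. The OPC-like total in injured cells was 0.755 times thinned, 0.673 with median-ratio scaling and 0.782 with Aldh1l1 cells, and in uninjured cells 0.714 with median-ratio scaling. Thinned, the injured endothelial-like and microglia-like totals were 0.130 and 0.0359 times, and the uninjured microglia-like total was 0. Thinning also gave 10.5% from groups 10 to 13 in uninjured ependymal-like cells and 100% from the B cluster in uninjured endothelial-like cells.

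Shares of cells with a Hox UMI were lower in each class named next when cells were thinned to 1000 UMIs. Between libraries they did not follow depth alone: injured astrocyte-like cells had a median of 3632 UMIs and a share of 76.3%, uninjured ones 3180 UMIs and 83.3%. Thinned, the shares were 44.1% and 50.3% in injured and uninjured astrocyte-like cells, 69.9% and 77.4% in ependymal-like, 37.0% and 50% in OPC-like, 47.5% and 64.8% in fibroblast-like, 8.96% and 19.2% in endothelial-like and 2.48% and 0% in microglia-like cells. In astrocyte-like cells the injured share was 85.5% at 1000 or more UMIs, 80.5% at resolution 1.0, 89.6% in male-scored cells, 87.7% with Aldh1l1 cells and 81.0% without the low-depth cluster. The uninjured share was 84.8% with no cell filter, 87.4% at 1000 or more UMIs, 86.1% at resolution 1.0, 85.4% with Hox members open to clustering, 87.0% in male-scored cells, 89.7% with Aldh1l1 cells, 84.8% with the unnamed clusters and 89.3% without the low-depth cluster. Male-scored injured cells gave 100% in ependymal-like, 100% in fibroblast-like and 75.0% in endothelial-like cells. Depth limits the uninjured ependymal-like, OPC-like, endothelial-like and microglia-like values, which rest on 14 to 31 cells each.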
